A study of Homo sapiens with 12 samples.

Results

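The TKOv3 knockout library held 1300 guides against 339 olfactory receptor genes, chosen here by the gene symbol in the guide name (OR, a family number, subfamily letters and a member number), of 71090 guides in all. They were set against the 142 guides with no target in the human genome, 96 against bacterial LacZ, 24 against luciferase and 22 against the green fluorescent protein EGFP. Each olfactory receptor guide directs Cas9 to cut a gene that these cells are not known to use, whereas the LacZ, luciferase and EGFP guides direct no cut. The 339 genes lay on 16 chromosomes, and 311 of them had 4 guides. RefSeq lists 335 of the 339 as protein coding.

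Olfactory receptors are G protein-coupled receptors through which sensory neurons of the nose detect odorants, and they form the largest receptor family of the human genome, mostly in tandem clusters. Tumour lines of breast or pancreas are not known to need them, which is why such guides serve as controls for the cut itself. A Cas9 cut is a double-strand break that activates the DNA damage response, and the loss of cells rises with the number of copies cut, so guides in an amplified region can drop out whatever gene they hit.

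The screens were run in HCC1806, a triple-negative breast cancer line, and MIA PaCa-2, a pancreatic ductal adenocarcinoma line. INX-315 inhibits CDK2, and palbociclib inhibits CDK4 and CDK6. All 12 libraries are genomic DNA from cells infected with the lentiviral library and selected with puromycin. The INX-315 screen in HCC1806 had 1 start library at passage 0, then 2 libraries in DMSO and 2 in INX-315 at 500 nM, all 4 labelled passage 8. The palbociclib screen in HCC1806 had 1 library each of the start at passage 0, of DMSO and of 500 nM palbociclib, both labelled passage 8. The MIA PaCa-2 screen had 1 library each of the start at passage 1, of DMSO, of 500 nM INX-315 and of 250 nM palbociclib, the later ones at passage 8. The study's methods state up to 5 passages, so the number of doublings behind each change is uncertain. Each screen had 1 start library, and the copy number of the loci was not measured here.

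Total counts ran from 24946956 to 58875726 per library. The median olfactory receptor guide had between 289 and 958.5 counts. DMSO 1 of the HCC1806 INX-315 screen stood apart. In it, 122 olfactory receptor guides had fewer than 30 counts, against 7 to 15 in each of the other libraries, and the SD of the guides' log2 change from the start was 1.62, against 0.55 to 0.85 in the other later libraries. HCC1806 averages over libraries include it unless stated, and those it moves most are given without it as well. The study describes the replicates of the HCC1806 INX-315 screen as biological, without saying how the cultures were separated, and every other condition had 1 library. Each p-value measures the spread between these libraries only.

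The first question was what a cut costs where no needed gene is lost. Relative to the non-targeting guides, olfactory receptor guides fell from the start in all 9 later libraries, but by a small amount. The measure is log2 of the CPM (counts scaled to a common library total, plus 0.5), taken as the median over the 1292 olfactory receptor guides minus the median over the 141 non-targeting guides with at least 30 counts in all 3 starts. At the start the olfactory receptor guides were the more abundant in all 3 screens, by 0.60 and 0.63 log2 units in the INX-315 and palbociclib screens of HCC1806 and by 0.61 in MIA PaCa-2. Later, the difference in HCC1806 was 0.12 and -0.04 in DMSO 1 and 2, 0.07 and 0.10 in INX-315 1 and 2, and 0.20 and 0.19 in the DMSO and palbociclib libraries of the palbociclib screen. In MIA PaCa-2 it was 0.29 in DMSO, 0.21 in INX-315 and 0.30 in palbociclib. The starts and the later libraries did not overlap.

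The change from the start was thus between -0.65 (DMSO 2 of HCC1806) and -0.31 (palbociclib, MIA PaCa-2). Averaged over the screens it was -0.44 log2 units. The exact permutation test over libraries, two-sided, with the start label moved within each screen, gave p = 0.0167, the smallest its 60 arrangements allow. With LacZ guides alone as the reference the mean change was -0.28 (exact permutation p = 0.050). With luciferase or EGFP guides alone it was -0.43 and -0.45.

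The size depended on how it was summarised. When each guide was first compared with its own start and the median taken over guides afterwards, a measure chosen after the data were seen, the cost was -0.30 (exact permutation p = 0.0167). In single libraries it then ran from -0.43 in DMSO 2 of HCC1806 to -0.19 in DMSO 1 of the same screen. The non-targeting guides started lower, at a median of 3.31 log2 CPM over the starts, against 3.93 for the olfactory receptor guides, and they were more widely spread. Among guides in the lowest, middle and highest tertile of start abundance, the guide-by-guide cost was -0.26, -0.43 and -0.40 as the mean over libraries. The lowest tertile held 90 of the 141 non-targeting guides, and the upper tertiles 30 and 21. The cost was below 0 in 9, 8 and 9 of the 9 later libraries.

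The 2 lines could not be ordered by this cost. By the difference of medians it was -0.54 ± 0.07 (SD over 4 libraries) in the HCC1806 INX-315 screen (-0.56 ± 0.08 over 3 libraries without DMSO 1), -0.43 ± 0.0066 (SD, n = 2) in the HCC1806 palbociclib screen and -0.34 ± 0.05 (SD, n = 3) in MIA PaCa-2. Guide by guide, the same screens gave -0.34, -0.26 and -0.29, so that MIA PaCa-2 lay between the HCC1806 screens. Without DMSO 1 the first of these was -0.39. The difference between the lines was not tested on this measure, since with 1 MIA PaCa-2 screen among 3 an exact permutation of the line cannot reach a p of 0.05.

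The loss was small beside that of genes the cells need. In the following family values each guide's change is set against the shift in the median level of the non-targeting guides, and the median over guides is taken last. On that scale olfactory receptor guides had medians of -0.66 to -0.29 over the 9 later libraries, and the non-targeting guides themselves -0.34 to 0.01. The 191 guides against cytosolic ribosomal proteins, which build the translation machinery, had medians of -4.18 to -3.29 in HCC1806 and -2.41 to -2.21 in MIA PaCa-2. The 154 guides against proteasome subunits, which degrade tagged proteins, had medians of -4.07 to -3.16 and -2.33 to -2.07.

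Other families with restricted expression lay close to the olfactory receptors. Taste receptor guides (89, in 26 genes) had medians of -0.83 to -0.20. Guides against keratin-associated proteins, structural proteins of hair (180, in 64 genes), had -0.55 to -0.06. Beta-defensin guides, against antimicrobial peptides (79, in 23 genes), had -0.68 to -0.13. Averaged over the HCC1806 libraries, these 3 families had -0.42, -0.40 and -0.54, against -0.50 for the olfactory receptors. Without DMSO 1 the 4 values were -0.34, -0.37, -0.55 and -0.49. In MIA PaCa-2 they had -0.33, -0.18 and -0.30, against -0.33. The smaller families spread more widely, from -1.42 to 0.15 for the 12 vomeronasal receptor guides and from -0.57 to 0.17 for the 23 late cornified envelope guides. Both of these upper ends were in DMSO 1, and without it the ranges were -1.42 to -0.50 and -0.57 to -0.35. The 20 trace amine receptor guides had medians of -0.52 to -0.23, and the 13 PRAMEF guides -0.86 to -0.29. These families were compared by their values only.

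Against all 68927 other targeting guides, the olfactory receptor guides were retained. Their median change was above that of the other guides in all 9 later libraries, by 0.15 (DMSO, MIA PaCa-2) to 0.33 (DMSO 1, HCC1806) log2 units. Over the screens the mean was 0.22 log2 units (exact permutation p = 0.0167, two-sided), in a comparison added after the data were seen. With means over guides in place of medians it was 0.36. Between 10.99% (DMSO, MIA PaCa-2) and 39.1% (DMSO 1, HCC1806) of olfactory receptor guides were more than 2-fold below their start on the non-targeting scale, against 22.7% to 46.6% of all targeting guides. Among non-targeting guides the range was 7.09% to 33.3%.

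Single guides varied far more than counting error allows. The SD of the change over olfactory receptor guides was 0.61 to 0.77 log2 units in the HCC1806 libraries other than DMSO 1. It was 0.55, 0.85 and 0.55 in the DMSO, INX-315 and palbociclib libraries of MIA PaCa-2. The median guide's counting error, which assumes independent reads and covers counting only, was 0.07 to 0.11. Non-targeting guides had SDs of 0.60 to 0.90 outside DMSO 1, so the spread was also there without a cut. In DMSO 1 it was 1.51 for non-targeting guides and 1.79 for all targeting guides.

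What 1 guide did said little about its neighbour. Across 213 pairs of olfactory receptor guides with overlapping target sites, the mean changes of the pair correlated with r = 0.06 in HCC1806 and 0.08 in MIA PaCa-2. Across 1667 pairs of guides to the same gene at separate sites r was 0.05 and 0.0054, and across 64756 pairs in the same 5 Mb window but in different genes 0.03 and 0.0044. Across 1292 guides, the mean change in HCC1806 without DMSO 1 and that in MIA PaCa-2 correlated with r = 0.19. Between single libraries of the lines, DMSO 1 left out, r was 0.07 to 0.16. Single libraries of the 2 HCC1806 screens, which have separate starts, had r of 0.13 to 0.24. Libraries that share a start had r of 0.76 to 0.88 in the INX-315 screen, 0.62 in the palbociclib screen and 0.22 to 0.68 in MIA PaCa-2. The low r between the lines is thus not read as a difference between them. These guides share libraries, and both lines received the same library design. They are not independent replicates.

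Replicate libraries differed beyond sampling noise, DMSO 1 the most. The raw counts of the olfactory receptor guides in DMSO 1 and DMSO 2 differed by a chi-square of 245 per guide, against 9.88 between INX-315 1 and 2 and 3.63 between the HCC1806 starts. All 12 libraries were counted separately, though such differences do not show that the cultures were independent. Whether the HCC1806 starts came from separate infections was not stated in the sources used here. The permutation tests treat the 2 HCC1806 screens as separate.

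The next question was whether the cost differed by locus. Chromosome 11, with 595 counted guides in 155 genes, holds the largest clusters. Its median change relative to the non-targeting level was -0.60, -0.66, -0.52 and -0.50 in DMSO 1, DMSO 2, INX-315 1 and INX-315 2 of HCC1806. It was -0.41 and -0.38 in the DMSO and palbociclib libraries of the palbociclib screen. In MIA PaCa-2 it was -0.32, -0.34 and -0.28 in DMSO, INX-315 and palbociclib. All 9 values lay near those of the whole set, but 595 of its 1292 guides are these, so nearness was partly built in. Chromosome 1, with 174 guides, averaged -0.43 in HCC1806 and -0.42 in MIA PaCa-2, and its ranges of -0.57 to -0.29 and -0.51 to -0.37 overlapped.

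Chromosomes 17 and 19 had the lowest HCC1806 averages of the chromosomes with more than 40 olfactory receptor guides. These averages are over medians of each guide's own change, and the place of chromosome 17 depended on that summary. By the change of the median level, used for the 5 Mb windows below, its windows with 39 and 8 guides changed by -0.65 and -0.86 in HCC1806. On that measure the 51 guides of chr6:25000001-30000000 changed by -0.69, and the chromosome 19 windows by -0.73, -0.68 and -0.53. The 47 guides on chromosome 17 had medians of -1.06, -1.11, -0.95 and -0.98 in the 4 later libraries of the INX-315 screen and -0.65 and -0.49 in those of the palbociclib screen. In MIA PaCa-2 they had -0.46, -0.29 and -0.43, all above the HCC1806 values on this scale. Without DMSO 1 their HCC1806 average moved from -0.87 to -0.83. The 70 guides on chromosome 19 averaged -0.69 (range -0.94 to -0.45) in HCC1806, -0.71 there without DMSO 1, and -0.27 (-0.30 to -0.23) in MIA PaCa-2. The guides against other genes of the same chromosomes averaged -0.91 and -0.57 on chromosome 17 and -0.80 and -0.65 on chromosome 19, in HCC1806 and MIA PaCa-2. On this scale the non-targeting guides themselves had medians of -0.34 to -0.12 in HCC1806 and -0.09 to 0.01 in MIA PaCa-2. Their averages were -0.18 and -0.04, so a gap of the same direction was there without a cut. The averages of the lines were 0.48 log2 units apart on chromosome 17 and 0.42 apart on chromosome 19. The non-targeting scale of the chromosome values was not taken guide by guide, and the gap between the lines was not tested by chromosome.

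The remaining larger groups were closer together. In HCC1806 the averages were -0.40 on chromosome 9 (92 guides), -0.54 on 14 (80), -0.49 on 12 (68), -0.59 on 6 (51) and -0.41 on 7 (48). Without DMSO 1 they were -0.42, -0.56, -0.40, -0.52 and -0.50. The order thus changed between chromosomes 12 and 7, 12 and 9, and 6 and 14. In MIA PaCa-2 they were -0.30, -0.30, -0.30, -0.37 and -0.25. The 7 chromosomes with 20 or fewer guides, 10, 15, 16, 2, 3, 5 and X, averaged between -0.59 and -0.24 in HCC1806 (-0.63 to -0.18 without DMSO 1) and between -0.76 and -0.16 in MIA PaCa-2. Chromosome 16, with 8 guides in 2 genes, had the lowest MIA PaCa-2 average, -0.76, and -0.59 in HCC1806.

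A test of locus was run on medians over 5 Mb windows, in which olfactory receptor guides and all other guides of a window were separate features and each had at least 8 guides. There were 25 olfactory receptor windows, with 1261 guides, among 605 features. In HCC1806, 22 of the 25 were lower than at the start (limma, Benjamini-Hochberg adjusted p under 0.05), where 97% of all 605 features were lower. In MIA PaCa-2, 6 of the 25 were lower, against 81.7% of all features. The HCC1806 count was 8 without the start of the INX-315 screen, 13 when the scaling was guide by guide, and 0 lower and 7 higher when it was the median of all guides. Among all 605 features these settings called 486 lower, 531 lower, and 41 lower and 72 higher. The MIA PaCa-2 changes rest on 1 start. Their count was 15 without DMSO 1 of HCC1806, which shares the spread estimate, 2 without the palbociclib library and 0 in DMSO and start libraries alone or with the median of all guides. Among all 605 features these settings called 545, 481, 0 and 0 lower.

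No olfactory receptor window was called different between the lines. The count was 0 of 25 (limma, adjusted p under 0.05), where 0.165% of all features were called higher in MIA PaCa-2 and 0% lower, and the smallest adjusted p among the 25 was 0.481. That p belonged to chr19:10000001-15000000, whose 14 olfactory receptor guides changed by -0.68 ± 0.11 (SE) in HCC1806 and by -0.27 ± 0.16 in MIA PaCa-2. The difference was 0.42 log2 units (95% interval -0.0016 to 0.84). The largest difference, 0.63, was in chr17:55000001-60000000 with 8 guides, and its interval of -0.49 to 1.74 was the widest of the 25. On chr17:1-5000000, where 39 guides lie, the difference was 0.28 (-0.24 to 0.81). On chr11:55000001-60000000, the window with the most olfactory receptor guides (232), it was 0.30 (-0.08 to 0.69). With guide-by-guide scaling the differences in these windows were smaller, in the order given 0.29, 0.50, 0.15 and 0.17. With the main scaling, differences over the 25 windows ran from -0.24 to 0.63. The half-width of their 95% intervals ran from 0.33 to 1.12, with a median of 0.42.

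The single feature called different between the lines contained no olfactory receptor. It was the set of 46 guides against other genes of chr11:35000001-40000000, between the clusters on the short arm and those around the centromere. There the medians were -1.74 to -1.32 in the 6 later HCC1806 libraries and -0.33, -0.05 and -0.30 in MIA PaCa-2, without overlap. The difference was 1.22 ± 0.21 (SE; limma adjusted p = 0.0247), and the adjusted p was 0.0772 with guide-by-guide scaling. The next olfactory receptor windows on that chromosome, chr11:5000001-10000000 with 176 guides and chr11:45000001-50000000 with 32, differed between the lines by 0.07 (-0.28 to 0.42) and 0.19 (-0.40 to 0.78).

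Within a window, the olfactory receptor guides were mostly less lost than the guides against other genes. This was so in 23 of the 24 windows with both in HCC1806 and in 22 of 24 in MIA PaCa-2. On chr17:1-5000000 the olfactory receptor guides changed by -0.65 and the 358 others by -1.12 in HCC1806, and by -0.37 and -0.65 in MIA PaCa-2. The exception in HCC1806 was chr6:25000001-30000000, where 51 olfactory receptor guides changed by -0.69 and 310 others by -0.59.

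At the level of single genes, a shared direction of all guides in all libraries was rare. Of the 319 olfactory receptor genes with at least 3 counted guides, 1 fell with every guide in all 6 later HCC1806 libraries, 16 in all 3 MIA PaCa-2 libraries, which share 1 start, and none in both lines. Of all 17612 genes with at least 3 counted guides, 10.2% met the same rule in HCC1806, 16.9% in MIA PaCa-2 and 5.75% in both. No olfactory receptor gene rose with every guide in either line, and nor did any other gene. The HCC1806 gene was OR6S1, on chromosome 14 (guide positions 21109036 to 21109228). Its mean over 4 guides was -3.08 in DMSO 1, -1.32 in DMSO 2, -1.25 and -0.93 in the INX-315 libraries, and -0.52 and -0.76 in the palbociclib screen. The mean over libraries was -1.31 ± 0.21 (SD over guides), and it was -0.95 without DMSO 1. In MIA PaCa-2 it was -0.35 in DMSO, -0.92 in INX-315 and -0.23 in palbociclib. A pair of its guides overlap in all but 1 base.

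When DMSO 1 was left out, an alternative chosen after the data were seen, 14 genes fell with every guide in the other 5 HCC1806 libraries and 4 of these in MIA PaCa-2 as well. Over all genes the shares were 19.4% and 8.13%. In these 5 libraries 0 olfactory receptor genes rose with every guide, and 0.00568% of all genes did. The 4 that fell in both lines were OR2C1, OR2AT4, OR2G2 and OR5D13, with HCC1806 means of -1.27, -1.13, -1.02 and -0.95 and MIA PaCa-2 means of -0.55, -0.62, -0.85 and -0.66. Of the 14 genes, 4 were on chromosome 11, where 147 genes had at least 3 guides (OR2AT4, OR5D13, OR8B12 and OR5L1). A further 3 of 12 were on chromosome 17 (OR3A1, OR3A3 and OR1E2) and 3 of 17 on chromosome 19 (OR1I1, OR7G1 and OR2Z1), and chromosomes 1, 12, 14 and 16 had 1 each. The share of all genes that met the rule was not taken by chromosome, so these counts only say where the genes lie.

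In MIA PaCa-2 the 5 lowest of the 16 genes were OR1F1, OR6P1, OR2G2, OR1D5 and OR6K2. OR1F1, on chromosome 16, had means over its 4 guides of -1.04, -1.08 and -1.11 in DMSO, INX-315 and palbociclib, and a mean of -1.07 ± 0.45 (SD over guides). Its mean in HCC1806 was -0.58. OR6P1 averaged -0.98 ± 0.23, OR2G2 -0.85 ± 0.55, OR1D5 -0.85 ± 0.30 and OR6K2 -0.81 ± 0.22. OR6P1, OR6K2 and OR2G2 lie on chromosome 1, and OR1D5 lies on chromosome 17. Near-identical receptor genes can share a guide's target, which was not examined here.

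OR4N4 was singled out after its values were seen. It lies on chromosome 15, RefSeq also lists a protein-coding gene named OR4N4C, and whether a guide matches both was not tested. Of its 4 guides, 3 averaged -2.73, -2.53 and -2.40 over the later HCC1806 libraries (-2.96, -2.46 and -1.89 without DMSO 1) and -0.67, -0.44 and -0.86 in MIA PaCa-2. The guide at chr15:22383255-22383274 changed by -2.89, -2.22, -2.24, -2.13, -2.66 and -3.08 in the HCC1806 libraries, with counts of 609 and 577 in the starts. In MIA PaCa-2 it changed by -0.59, -0.19 and -0.54. The fourth guide, at chr15:22383365-22383384, averaged -0.36 and -0.66 in the lines. Among the 319 genes with at least 3 counted guides, OR4N4 had the lowest mean in 4 of the 6 later HCC1806 libraries. Its window held too few olfactory receptor guides for the test by locus.

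Of the 1292 guides, 33 were more than 2-fold lower in all 6 later HCC1806 libraries, 40 in all 3 of MIA PaCa-2 and 1 in all 9, where 10.9%, 11.1% and 5.91% of all targeting guides were. The lowest guide in HCC1806, against OR4Q3 at chr14:20215715-20215734 (minus strand), averaged -3.37, and -3.28 without DMSO 1. Its counts were 277 and 235 in the starts and 4, 26, 11, 14, 51 and 44 later. In MIA PaCa-2 it changed by -0.99, -1.89 and -1.08. The highest in HCC1806, against OR10G3 at chr14:22038409-22038428, averaged 0.82 but ranged from -0.81 to 2.57 over the libraries, with the highest value in DMSO 1, without which the mean was 0.47. The lowest in MIA PaCa-2, against OR1C1 at chr1:247920923-247920942, changed by -1.46, -3.93 and -1.75, with 420 counts at the start and 195, 11 and 108 later. Its mean of -2.38 became -1.15 with a pseudocount of 5. The highest, against OR4C13 at chr11:49974621-49974640, averaged 1.14 in MIA PaCa-2, where it changed by 0.11, 2.26 and 1.04. In the 4 later libraries of the HCC1806 INX-315 screen it changed by -2.51 to -1.85, and by 0.76 and -0.55 in the DMSO and palbociclib libraries of the palbociclib screen.

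Olfactory receptor guides below the non-targeting shift in all 9 later libraries numbered 214, or 16.6%, against 28.4% of all targeting guides and 6 of the 141 non-targeting guides. Only 1 was above it in all 9, as were 0.0498% of all targeting guides and 2 non-targeting guides. It was against OR52A1, at chr11:5173242-5173261, with changes of 0.0017 to 1.14. The guide more than 2-fold lower in all 9 was against OR5AP2 at chr11:56409160-56409179. It changed by -1.59, -2.62, -2.51, -1.87, -3.31 and -2.94 in HCC1806 and by -1.66, -2.21 and -1.91 in MIA PaCa-2. The other guides against OR5AP2 averaged -1.46, -0.04 and -0.50 in HCC1806, and -1.03, 0.17 and -0.70 without DMSO 1.

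In the fit over single guides, HCC1806 DMSO was compared with the starts by edgeR's quasi-likelihood test. None of 1293 olfactory receptor guides passed an adjusted p of 0.05, where 0% of all 70340 guides did. At an unadjusted p under 0.05, 21 were lower and 0 higher, a count that was not taken over all guides and is not read as a loss. DESeq2 called 24 lower and 0 higher among the olfactory receptor guides, and 6115 lower (8.69%) and 3 higher (0.00426%) among all guides. Without DMSO 1, edgeR called 9 lower and 1 higher, against 4460 (6.34%) and 5 (0.0071%) of all 70379 guides. Without DMSO 2 it called 1 lower, against 3530 (5.02%) of all guides. The guide with the smallest p was the OR4N4 guide at chr15:22383255-22383274, with a log2 fold change of -2.61 ± 0.71 (SE; edgeR adjusted p = 0.217). The median log2 fold change of the olfactory receptor guides was -0.39 with non-targeting scaling and 0.18 with TMM scaling over all guides, so its sign depends on the scaling.

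The last question was whether a cut costs more with a drug than in DMSO. The olfactory receptor minus non-targeting level in the drug libraries minus that in DMSO was 0.05 in the HCC1806 INX-315 screen. It was -0.0094 in the HCC1806 palbociclib screen and -0.04 in MIA PaCa-2, where the 2 drugs were averaged. There the level was 0.21 in INX-315 and 0.30 in palbociclib, against 0.29 in DMSO. On average INX-315 thus lay above DMSO in HCC1806 and below it in MIA PaCa-2. The overall mean joins 2 drugs and values of both signs, so it does not describe either drug alone. The mean over screens was 0.0001 log2 units (exact permutation p = 1.00, two-sided; the smallest of 36 arrangements is 0.0278). The 3 screen values differed by less than the levels of DMSO 1 (0.12) and DMSO 2 (-0.04) of HCC1806 did.

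Single guides did differ between drug and DMSO libraries, in shares that depended on the DMSO library used. In HCC1806, 57.2% and 56.5% of olfactory receptor guides were more than 2-fold apart between INX-315 1 and 2 and DMSO 1, but 5.96% and 5.26% between the same libraries and DMSO 2. With palbociclib the share was 10.2% in HCC1806 and 2.40% in MIA PaCa-2, and it was 24.4% for MIA PaCa-2 under INX-315. Among all guides the shares were 55.6% and 55.3% against DMSO 1, 7.95% and 7.74% against DMSO 2, 12.8% and 5.29% with palbociclib in HCC1806 and MIA PaCa-2, and 30.7% with INX-315 in the latter. Comparing INX-315 with DMSO in HCC1806, edgeR called 0 of 1290 olfactory receptor guides, with 0% of 66826 called in all. At an unadjusted p under 0.05, 12 were lower and 2 higher, a count that was not taken over all guides. DESeq2 called 12 lower (0.93%) and 0 higher, where it called 0.944% of all guides lower. Without DMSO 1 edgeR called 53 lower and 49 higher (4.11% and 3.80%), against 5.73% and 3.07% of all guides. Without DMSO 2 it called 504 lower and 414 higher (39.1% and 32.1%), against 38.7% and 31.4% of all guides, each time with the lone DMSO library assumed to vary like the INX-315 pair.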

How the data were processed

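Guide regions were amplified from genomic DNA and sequenced, and the authors counted reads per guide. The submitters' processing notes name MAGeCK 5.9. The deposited counts are raw, 1 table per screen, and MAGeCK's normalized tables and test results were not used here. The genome build of the positions in the guide names was not given in the sources used here. Only 20 of 1300 guides fall inside their gene at GRCh38.p14 positions, so genes were matched to RefSeq by symbol (337) or synonym (2).

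Counts were turned into log2(CPM + 0.5) with Python 3.11.15, and guides needed 30 counts in all 3 starts. Changes are relative to the median of the non-targeting guides. Single guides were fitted with edgeR 4.0.16 (quasi-likelihood, mean count of at least 30) with DESeq2 1.42.0 as the alternative, and 5 Mb windows with limma 3.58.1, in R 4.3.3, all with Benjamini-Hochberg adjustment over the whole table. Summaries over guides were tested by exact permutation of libraries within screens. The scripts were tested on simulated data.

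The members, families and tests were chosen with earlier results of these data known. Genes with 3 or more guides were named where every guide shared 1 direction in each later library of a line (up to 5 lowest and 5 highest by mean), as were the lowest and highest guide of each line. The other genes named (OR2C1, OR2AT4, OR5D13, OR3A1, OR3A3, OR1E2, OR1I1, OR7G1, OR2Z1, OR8B12, OR5L1, OR4N4, OR52A1, OR5AP2) were chosen after their values were seen. Alternatives covered the reference guides, pseudocount, filters, scaling, windows, covariates and each library left out. Guide-by-guide changes, the comparison with other targeting guides and leaving DMSO 1 out of the gene rule were added after the data were seen.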

Additional observations from a re-analysis of the deposited data

How the results depend on the processing

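The cutting cost kept its sign under every alternative run. It ran from -0.49 to -0.39 when 1 library at a time was left out, was -0.28 with LacZ guides only (exact permutation p = 0.050), and missed p = 0.05 without any 1 of the starts, where the smallest attainable p is 0.050 to 0.083. The excess over other targeting guides ran from 0.20 to 0.23 without single libraries, with the same limit, and was 0.16 with a pseudocount of 5 and 0.36 with means. The drug difference did not pass the test under any alternative and ran from -0.03 to 0.03 without single libraries. The count of olfactory receptor guides called from the start in HCC1806 DMSO was 0 in edgeR and 24 in DESeq2, and 0 to 10 without single libraries. It was 10 without DMSO 1 and 1 without DMSO 2. For INX-315 against DMSO it was 0 in edgeR and 12 in DESeq2, and 0 to 918 without single libraries, with 102 without DMSO 1 and 918 without DMSO 2. All guides called there numbered 631 in DESeq2, and 3819 lower and 2046 higher, and 25768 lower and 20907 higher, without DMSO 1 and 2. With the replicate number as a block edgeR called 0 olfactory receptor guides, and 24 lower among all 66826 guides. At an unadjusted p under 0.05, 10 olfactory receptor guides were lower and 27 higher, a count that was not taken over all guides. Same-numbered DMSO and INX-315 libraries did not deviate together (r = -0.0082, and 0.0082 with the numbers crossed). With 2 libraries an arm and DMSO 1 standing apart, this cannot tell whether the number pairs cultures. Olfactory receptor windows called in HCC1806 numbered 22, 13 with guide-by-guide scaling, and 8 to 23 without single libraries. Among all 605 features the counts were 587, 531, and 486 to 593. With the median of all guides as the scale 7 windows were called and the direction reversed, where 41 features were lower and 72 higher. In MIA PaCa-2 the olfactory receptor windows called numbered 6, 0 from DMSO and start libraries only, and 2 to 15 without single libraries. Among all features the counts were 494, 0, and 436 to 545. With the median of all guides the direction reversed and 0 were called, as among all features. No alternative called an olfactory receptor window different between the lines. With a pseudocount of 5, OR6S1 was -0.81, the OR4Q3 guide -1.57, the OR1C1 guide -1.15, OR6P1 -0.71 and OR6K2 -0.57. The causes were not tested. Single MIA PaCa-2 libraries per condition, 1 start per screen and counts under 30 in DMSO 1 limit the precision.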
